A study of Mus musculus with 12 samples.

Results

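The 7 complex I subunits that mouse mitochondrial DNA encodes, mt-Nd1, mt-Nd2, mt-Nd3, mt-Nd4, mt-Nd4l, mt-Nd5 and mt-Nd6, were examined in melanoma cells with and without a knockdown of Osgep. They were taken by name as 7 of the 55487 genes in each deposited count table, and as 7 of the 13 protein genes of the mitochondrial genome, whatever their values. Libraries came from B16F10, a cultured mouse melanoma line, carrying either a control short hairpin RNA (shCtr, labelled wild type) or hairpin number 2 against Osgep (shOSGEP). Each genotype had 3 replicates of ribosome-protected fragments (RPF), the short RNA pieces that ribosomes shield from nuclease, and 3 of total RNA, which made 12 libraries in 4 groups. All cells were grown to confluence in serum-containing medium and given cycloheximide before lysis, and ribosomes for the RPF libraries were captured with a puromycin analogue. The design holds 1 cell line and 1 hairpin. The labels did not say whether replicates were separate cultures, so the p-values measure the spread between these samples only.

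Complex I is the entry point of electrons from NADH into the respiratory chain, and the mitochondrially encoded subunits form the core of its membrane arm. Their messages are made as long transcripts from both strands of the circular genome, cut out, and translated by mitochondrial ribosomes with mitochondrial tRNAs. Cycloheximide stops cytosolic ribosomes and does not stop mitochondrial ones. Osgep encodes the catalytic subunit of the complex that puts t6A next to the anticodon of cytosolic tRNAs reading codons that start with A (ANN codons), whereas its relative Osgepl1 does so in mitochondria.

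The members differ in how they begin and in how many ANN codons they hold. The first 10 codons of each coding sequence are shown from the RefSeq mitochondrial genome of GRCm38, 5′ to 3′ on the coding strand, with ANN codons in capitals.
mt-Nd1: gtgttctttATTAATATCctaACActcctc
mt-Nd2: ATAAATcctATCACCcttgccATCATCtac
mt-Nd3: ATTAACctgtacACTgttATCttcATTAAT
mt-Nd4l: ATGccatctACCttcttcAACctcACCATA
mt-Nd4: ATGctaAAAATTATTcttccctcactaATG
mt-Nd5: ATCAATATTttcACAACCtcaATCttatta
mt-Nd6: ATGAATAATtatATTtttgttttaAGTtca
Over whole coding sequences, ANN codons made up 28.0% of mt-Nd1, 42.6% of mt-Nd2, 31.3% of mt-Nd3, 39.0% of mt-Nd4, 29.6% of mt-Nd4l, 39.7% of mt-Nd5 and 23.3% of mt-Nd6. The range was 23.4% to 37.6% in the 6 other mitochondrial protein genes. On the mitochondrial chromosome (GRCm38), the coding ranges were 2751 to 3707 for mt-Nd1, 3914 to 4951 for mt-Nd2, 9459 to 9806 for mt-Nd3, 9877 to 10173 for mt-Nd4l, 10167 to 11544 for mt-Nd4 and 11742 to 13565 for mt-Nd5, all on the plus strand. mt-Nd6 (13552 to 14070) lay on the minus strand. The ends of mt-Nd4l and mt-Nd4 shared 7 bases, and those of mt-Nd5 and mt-Nd6 shared 14 bases on opposite strands. None of these genes has an intron.

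Some members have near-identical nuclear copies, shown because they decide how far the counts of a member can be trusted. Gm28438 (chromosome 1, 24612775 to 24613119, minus strand, GRCm38) matched mt-Nd3 over 345 bases with 1 difference, written T3C with the base of mt-Nd3 first and positions counted from 1 at the first base of its coding sequence. The window that holds the difference is given with that base in capitals.
mt-Nd3: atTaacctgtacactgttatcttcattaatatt
Gm28438: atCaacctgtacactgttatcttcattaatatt
Gm10222 (24612407 to 24612700) was identical to mt-Nd4l over 294 bases, and Gm28439 (24611535 to 24612410) was identical to mt-Nd4 over 876 bases, both on the minus strand of chromosome 1. In the total RNA tables, the copy held 76.9% to 83.6% of the reads of mt-Nd3 and Gm28438 together and 68.4% to 81.6% of those of mt-Nd4l and Gm10222, but 0.165% to 2.56% of those of mt-Nd4 and Gm28439. In RPF the copies had 0 reads, except for 14 reads on Gm28438 in shOSGEP replicate 2. Gm28438 and Gm10222 were thus filled in one assay and almost empty in the other, and the levels and RPF to RNA ratios of mt-Nd3 and mt-Nd4l are uncertain. Of all windows of 30 bases, about a footprint long, 0% of mt-Nd1, 8.37% of mt-Nd6, 14.2% of mt-Nd2, 17.8% of mt-Nd5, 63.2% of mt-Nd4, 99.1% of mt-Nd3 and 100% of mt-Nd4l also occurred in the nuclear genome. The treatment of reads that match several places is not known, so the RPF level and RPF to RNA ratio of mt-Nd4 are uncertain too.

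Before the members, the libraries were checked. Total counts ranged from 12.9 to 40.3 M in RPF and from 46.7 to 81.1 M in total RNA. Levels are counts per M (CPM) of the library size after scaling by TMM, a factor that evens out the bulk of genes between libraries and that ran from 0.428 (shOSGEP replicate 1) to 1.35 in RPF and from 0.9499 to 1.04 in total RNA. Osgep measured 13.9, 15.7 and 15.3 CPM in shCtr total RNA and 0.589, 6.92 and 6.77 CPM in shOSGEP replicates 1, 2 and 3, so its RNA was lower in all 3 pairs with groups that did not overlap, and lowest in replicate 1. Its fitted change was −1.65 (SE 0.77), which did not pass the test. In RPF Osgep measured 7.72, 7.27 and 4.71 CPM in shCtr and 4.87, 3.81 and 2.36 CPM in shOSGEP, lower in all 3 pairs with 63.5%, 52.8% and 50.9% left, but the groups overlapped and shOSGEP replicate 1, lowest in RNA, was the highest of the 3 knockdown libraries. All 10 melanocyte markers exceeded 1 CPM in at least 1 library. Their summed level ranged from 10148 to 17889 CPM in shCtr and from 2824 to 13419 CPM in shOSGEP total RNA. Of 13 markers of leukocytes, fibroblasts, endothelium and keratinocytes, 3 (Lyz2, Col1a1 and Pdgfra) exceeded 1 CPM in any library, with Cd3e, Itgam, Col3a1, Cdh5 and Krt5 at 0 throughout. The sum of the 13 was 4.61 to 6.23 CPM in shCtr and 5.48 to 25.7 CPM in shOSGEP. The part of these marker shifts in the member values was not tested. The RPF library of shOSGEP replicate 1 stood apart, with 67.6% of its counts on cytosolic ribosomal RNA against 26.5% to 44.3% in the other 5, and with only 1629 reads on the 7 members. The other RPF libraries held 16290 to 53457 member reads and the total RNA libraries 272612 to 1207047. Results are therefore given by pair, a pair being the shCtr and shOSGEP libraries with the same replicate number.

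In RPF, 7, 6 and 6 of the 7 members were lower in shOSGEP in pairs 1, 2 and 3, and in total RNA 7, 1 and 0 of 7 were. The exceptions in RPF were mt-Nd6 in pair 2 and mt-Nd5 in pair 3, and the 1 in RNA was mt-Nd3 in pair 2. The median log2 difference of the 7 members, shOSGEP minus shCtr, was −3.46 in pair 1, −0.62 in pair 2 and −0.10 in pair 3 in RPF. In total RNA it was −1.15, 0.20 and 0.23. The RPF to RNA ratio, taken as translational efficiency (TE), had medians of −2.14, −0.82 and −0.37, and was lower in all 3 pairs for 7 of 7 members, a pattern that 11.2% of the 12560 genes tested showed. By this ratio the mitochondrial rRNAs mt-Rnr1 and mt-Rnr2 were also lower in all 3 pairs. In RPF, 5 of 7 members were lower in all 3 pairs, against 15.2% of 13529 genes. In total RNA 0 of 7 were, against 16.2% of 14516 genes. All 3 shOSGEP values lay below all 3 shCtr values for 0 of 7 members in RPF (2.64% of genes) and 0 of 7 in total RNA (3.09% of genes). With library totals in place of TMM-scaled sizes, a setting chosen after seeing the data, 3 of 7 members (mt-Nd3, mt-Nd4 and mt-Nd4l) were lower in all 3 pairs in RPF, 0 of 7 in total RNA, and 6 of 7, mt-Nd5 excepted, in TE. The RPF medians of the members were then −4.38, −0.55 and 0.02, beside −0.91, 0.06 and 0.12 over all genes tested, so the direction of mt-Nd1, mt-Nd2 and mt-Nd6 in RPF in pair 3 depended on the scaling. The 3 members lower in all 3 pairs in RPF on library totals are those with the chromosome 1 copies described above. In bulk samples, fewer mitochondria per cell and less RNA per mitochondrion cannot be told apart.

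No member passed the test. At an adjusted p of 0.05 in the edgeR quasi-likelihood test, 0 of 7 members and 0.0% of all genes were called in each of RPF, total RNA and TE. The edgeR adjusted p of the members was 0.9998 in RPF, 0.975 to 0.998 in total RNA and 1.00 for TE. At an unadjusted p under 0.05, 0 of 7 members were found in each of the 3 measures, and 139, 259 and 17 genes in all. The fitted log2 changes had a median of −0.70 over the 7 members in RPF, −0.02 in total RNA and −0.59 in TE, beside medians of 0.05, 0.02 and 0.01 over all genes tested. Standard errors were 0.66 to 1.16 in RPF. Without replicate 1, the medians were −0.37 in RPF, 0.23 in total RNA and −0.62 in TE, and TE was lower in shOSGEP for 7 of 7 members. With the replicate number as a block, the medians were −1.25, −0.21 and −1.08, and 1 gene was called in total RNA, Cdsn, which is no member. At an unadjusted p under 0.05 the block found 2 of 7 members in RPF, mt-Nd4 and mt-Nd4l, both lower, beside 1.52% of the 13529 genes lower by that rule, and 0 of 7 in total RNA and in TE. Both have a chromosome 1 copy, and their edgeR adjusted p with the block was 0.817.

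**Figure D1:**
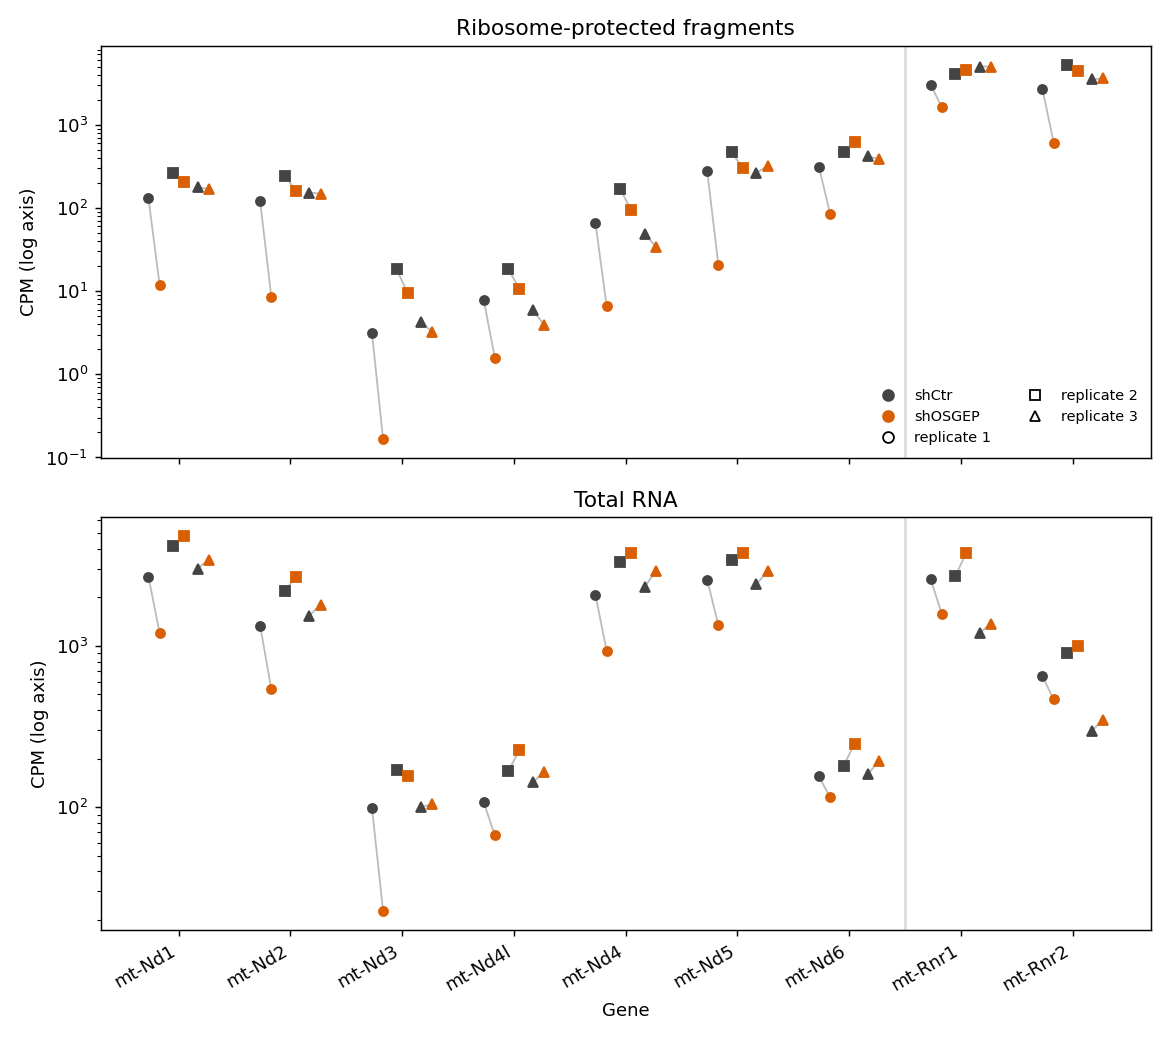
Level of the 7 members and of the mitochondrial ribosomal RNAs in CPM on a log axis, in RPF (upper panel) and total RNA (lower panel). Each grey line joins the shCtr (grey symbol) and shOSGEP (orange symbol) library of 1 replicate. In RPF the shOSGEP replicate 1 library was the lowest of the 6 for each member, and in total RNA the orange symbols lie above the grey ones in pair 3 for each member.

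The subunits mt-Nd2, mt-Nd4 and mt-Nd5 are related to bacterial antiporters and form the proton-pumping modules of the membrane arm. mt-Nd2 measured 120, 244 and 153 CPM in RPF of shCtr replicates 1, 2 and 3, and 8.42, 161 and 148 CPM in shOSGEP. Its RNA measured 1334, 2206 and 1540.0 CPM in shCtr and 538, 2673 and 1805 CPM in shOSGEP. Footprints were thus lower in each pair, although in pair 3 library totals gave a difference of 0.07 on the log2 scale, while RNA was higher in pairs 2 and 3. The log2 RPF to RNA ratio of mt-Nd2 was −3.48, −3.18 and −3.33 in shCtr and −5.98, −4.05 and −3.60 in shOSGEP, and the groups did not overlap, as for 2.31% of genes tested in this direction. With library totals these groups would overlap, because the RPF TMM factor was 0.807 in shCtr replicate 1 and 1.35 in shOSGEP replicate 3. The fitted TE change of mt-Nd2 was −0.68 (SE 1.15).

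mt-Nd4 measured 66.0, 170.3 and 49.1 CPM in RPF of shCtr and 6.69, 93.4 and 34.3 CPM in shOSGEP. The groups overlapped, because shOSGEP replicate 2 lay above shCtr replicates 1 and 3. In total RNA mt-Nd4 measured 2077, 3318 and 2314 CPM in shCtr and 936, 3745 and 2911 CPM in shOSGEP. Its footprints were 10.2%, 54.9% and 69.9% of shCtr and its RNA 45.0%, 113% and 126% in pairs 1, 2 and 3. The log2 RPF to RNA ratio was −4.97, −4.28 and −5.56 in shCtr and −7.11, −5.32 and −6.41 in shOSGEP. It differed by −2.14, −1.04 and −0.85 within pairs 1, 2 and 3, yet the groups overlapped. mt-Nd4 had the most negative fitted RPF change of the members, −1.08 (SE 0.90).

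mt-Nd5, the outermost pumping module, measured 279, 464 and 266 CPM in RPF of shCtr and 20.7, 301 and 316 CPM in shOSGEP. In contrast to mt-Nd2 and mt-Nd4, the shOSGEP value was the higher one in pair 3. RNA of mt-Nd5 was 2570, 3404 and 2410.2 CPM in shCtr and 1343, 3756 and 2903 CPM in shOSGEP. The log2 ratio was −3.20, −2.88 and −3.18 in shCtr and −6.01, −3.64 and −3.20 in shOSGEP, so that pair 3 differed by only −0.02. The fitted TE change was −0.59 (SE 1.02).

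mt-Nd1 lies at the joint between the membrane arm and the peripheral arm, where it lines the ubiquinone-binding chamber. Its footprints were 132, 260.4 and 178 CPM in shCtr and 11.9, 207 and 168 CPM in shOSGEP. Pair 1 carried most of this difference, with 9.08% of the shCtr value left against 79.5% and 94.1% in pairs 2 and 3. RNA of mt-Nd1 was 2693, 4174 and 3018 CPM in shCtr and 1203, 4789 and 3428 CPM in shOSGEP. Its log2 RPF to RNA ratio was −4.35, −4.002 and −4.08 in shCtr and −6.65, −4.53 and −4.35 in shOSGEP. The groups did not overlap, as for 2.31% of genes tested in this direction. However, the lowest shCtr value (−4.353) and the highest shOSGEP value (−4.354) all but touched, and with library totals the groups would overlap. The fitted TE change of mt-Nd1 was −0.49 (SE 1.09). mt-Nd1 was the member with no 30-base window in the nuclear genome, so its counts carry no doubt from copies of that length.

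mt-Nd3 and mt-Nd4l are small subunits, mt-Nd3 with a loop near the ubiquinone site. mt-Nd3 measured 3.16, 18.3 and 4.21 CPM in RPF of shCtr and 0.165, 9.50 and 3.24 CPM in shOSGEP. The pair 1 values rested on 56 and 2 reads, a ratio of 5.23% with a 95% exact interval of 0.619% to 19.8% that covers counting error only. In total RNA mt-Nd3 was at 99.0, 170 and 99.6 CPM in shCtr and at 22.7, 156 and 105 CPM in shOSGEP. mt-Nd4l measured 7.89, 18.3 and 5.97 CPM in RPF of shCtr and 1.57, 10.7 and 3.91 CPM in shOSGEP, with 20.6%, 58.7% and 66.0% left in pairs 1, 2 and 3. Its RNA measured 108, 167 and 142 CPM in shCtr and 66.7, 226 and 166 CPM in shOSGEP. Of the members mt-Nd4l had the most negative fitted TE change, −1.09 (SE 0.89). With reads of the nuclear copies added to their members, a setting chosen after seeing the data, the fitted TE change was −0.54 for mt-Nd3 instead of −0.56 and −1.08 for mt-Nd4l. These changes thus barely depended on adding the reads assigned to the copies, although the levels in total RNA did. The copies held almost no RPF reads, so this setting could hardly move the RPF side. Any reads matching several places that were left uncounted or counted elsewhere are not covered by it.

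mt-Nd6 is the only member read from the other strand. It measured 310.5, 469 and 415 CPM in RPF of shCtr and 85.05, 615 and 387 CPM in shOSGEP, so 27.4%, 131% and 93.4% was left. RNA of mt-Nd6 was 155, 180.3 and 161 CPM in shCtr and 115, 248 and 195 CPM in shOSGEP. Its log2 RPF to RNA ratio was 1.00, 1.38 and 1.37 in shCtr and −0.44, 1.31 and 0.99 in shOSGEP, and the fitted TE change was −0.30 (SE 0.75). In shCtr the mean log2 ratio of mt-Nd6 was 1.25 ± 0.22 (SD, n = 3), above that of 97.5% of the 12560 genes tested, whose median was −1.33. The other 6 members had means from −4.94 to −3.09, above no more than 0.804% of genes. The use of strand in counting was not given in the sources used here, so reads of mt-Nd6 cannot be told apart from reads of the opposite strand. The total RNA libraries are labelled poly-A RNA, and any such selection could change the RNA side of the ratio for single genes. The part of either in the high ratio of mt-Nd6 was not tested.

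**Figure D2:**
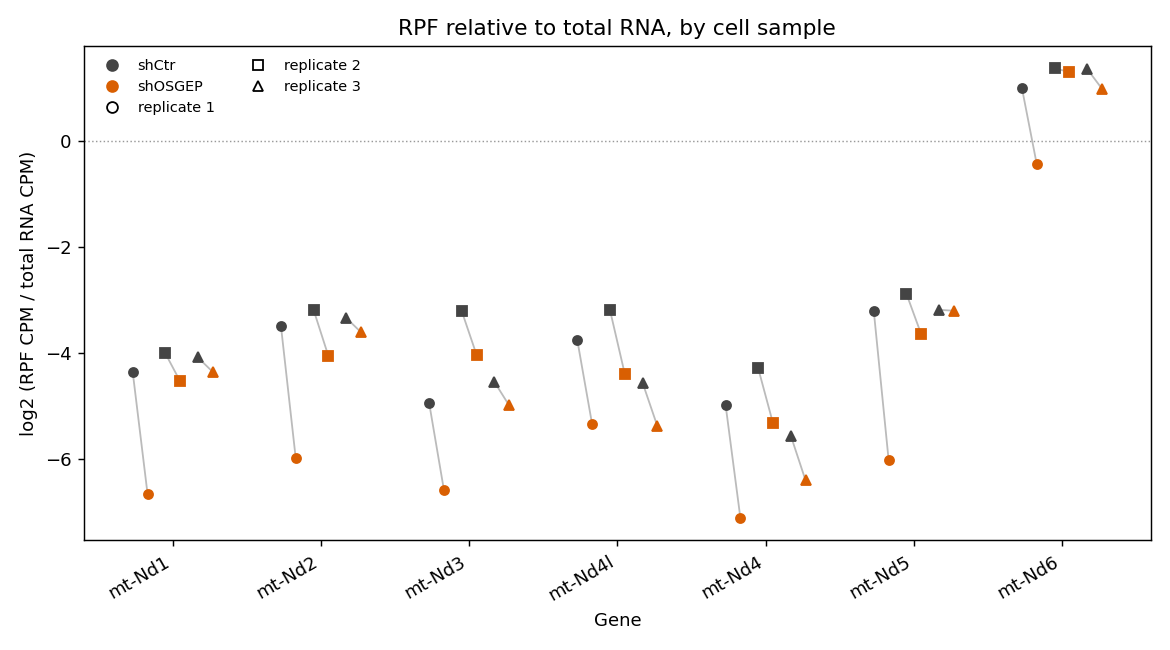
Log2 ratio of RPF CPM to total RNA CPM for each member in each of the 6 cell samples, with grey lines joining shCtr (grey symbol) and shOSGEP (orange symbol) of the same replicate. Each line slopes down (with library totals in place of TMM-scaled sizes, the replicate 3 line of mt-Nd5 would rise), steepest in replicate 1, and only mt-Nd6 has values above 0.

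The weight of mt-Nd6 among the members moved between libraries. It took 33.8%, 28.5% and 38.7% of the member reads in RPF of shCtr replicates 1, 2 and 3, and 63.2%, 44.0% and 36.5% in shOSGEP. The share was higher in shOSGEP in pairs 1 and 2 and lower in pair 3. In total RNA mt-Nd6 made up 1.32% to 2.73% of member reads in all 6 libraries. Relative to the 13 mitochondrial protein genes, the 7 members together took 37.8%, 42.2% and 37.5% of RPF reads in shCtr and 48.1%, 44.9% and 43.4% in shOSGEP. Without mt-Nd6, the 6 others took 25.0%, 30.1% and 23.0% in shCtr and 17.7%, 25.1% and 27.6% in shOSGEP, so the direction was not the same in each pair. In total RNA the 7 members took 38.3%, 40.4% and 39.6% in shCtr and 34.3%, 42.8% and 39.96% in shOSGEP.

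Levels were ordered per kilobase of coding sequence. In RPF of shCtr, mt-Nd6 came first with 767 ± 155 CPM per kb (SD, n = 3), above every value of mt-Nd1 (199 ± 68.1). mt-Nd1, mt-Nd5 (184 ± 60.7) and mt-Nd2 (166 ± 61.9) differed by less than their spread, followed by mt-Nd4 (69.0 ± 47.6), mt-Nd4l (36.1 ± 22.4) and mt-Nd3 (24.6 ± 24.3), whose ranges also overlapped each with its neighbour. In total RNA of shCtr, with reads on the nuclear copies left out, the order was different. mt-Nd1 led with 3443 ± 813 CPM per kb, above all values of mt-Nd4 (1865 ± 478), mt-Nd2 (1631 ± 439) and mt-Nd5 (1532 ± 293), which overlapped. mt-Nd4l (468 ± 100.3), mt-Nd3 (353 ± 117) and mt-Nd6 (319 ± 25.5) were last, below all values of mt-Nd5, and these neighbours also overlapped. With the reads of the copies added, mt-Nd4l (1809 ± 253) and mt-Nd3 (1717 ± 647) lay between mt-Nd4 and mt-Nd2, so the place of both in total RNA is uncertain. The place of mt-Nd6 there depends on the use of strand and on any poly-A selection, and neither is known. In shOSGEP the means kept the RPF order, but the range of each gene overlapped that of the next.

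Mitochondrial ribosomal RNA served as the check on mitochondrial content. In RPF, mt-Rnr1 measured 3033, 4089 and 5004 CPM in shCtr and 1617, 4591 and 4998 CPM in shOSGEP, and mt-Rnr2 measured 2698, 5269 and 3500 CPM in shCtr and 611, 4470 and 3604 CPM in shOSGEP. Summed, they differed by −1.36, −0.05 and 0.02 on the log2 scale in pairs 1, 2 and 3. Both rRNAs were thus also low in shOSGEP replicate 1, and their sum was nearly level in the other pairs. In pair 1 they differed unequally, by −0.91 for mt-Rnr1 and −2.14 for mt-Rnr2. The ratio of mt-Rnr1 to mt-Rnr2 reads was 2.65 in shOSGEP replicate 1 and 0.776 to 1.43 in the other RPF libraries. Pair 1 values relative to mitochondrial rRNA therefore depend on which rRNA is used. In total RNA the summed rRNAs differed by −0.67, 0.41 and 0.20, the same signs as the median of the members. These libraries are labelled poly-A RNA, and in shCtr they held 279, 377 and 645 member reads per 100 mitochondrial rRNA reads. Mitochondrial rRNA in total RNA, and ratios built on it, are therefore an uncertain check on content. The log2 RPF to RNA ratio differed by −0.19, −0.32 and −0.19 for mt-Rnr1 and by −1.66, −0.39 and −0.20 for mt-Rnr2. A lower ratio in all 3 pairs was thus not particular to protein genes. Against 100 reads of mitochondrial rRNA, the RPF libraries held 16.02, 17.6 and 12.6 member reads in shCtr and 6.04, 15.4 and 12.3 in shOSGEP. The log2 differences were −1.41, −0.19 and −0.03. Without mt-Nd6 they were −2.26, −0.54 and 0.02, and for mt-Nd6 alone −0.50, 0.44 and −0.12. In pair 3 the summed footprints per mitochondrial rRNA were thus nearly level between the genotypes, but single members were not, with −0.63 for mt-Nd4l, −0.53 for mt-Nd4, −0.39 for mt-Nd3 and 0.23 for mt-Nd5. The part of mitochondrial content, and of the rRNA share of the shOSGEP replicate 1 RPF library, in the member values was not tested.

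**Figure D3:**
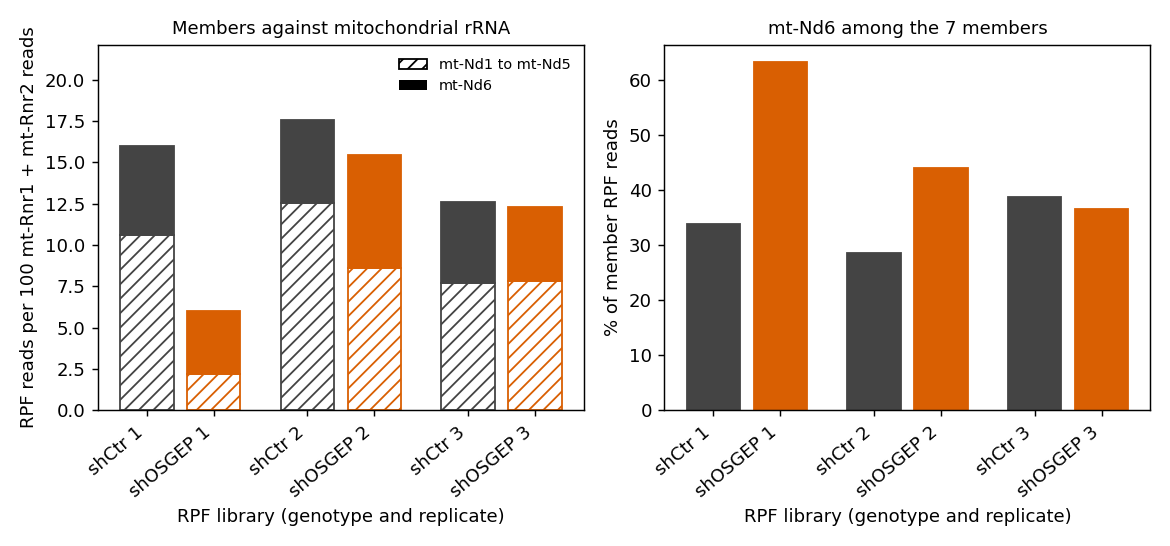
Left, RPF reads of the members per 100 reads of mt-Rnr1 and mt-Rnr2 in each RPF library, hatched for mt-Nd1 to mt-Nd5 (mt-Nd4l included) and filled for mt-Nd6. Right, mt-Nd6 as a percentage of member RPF reads. The bars are single libraries, and the hatched part is lowest in shOSGEP replicate 1, at 2.22.

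The other 6 mitochondrial protein genes, of complexes III, IV and V, showed a like pattern. In RPF 6 of 6 were lower in all 3 pairs (5 of 6 with library totals), with median log2 differences of −3.38, −0.98 and −0.43, and in total RNA 0 of 6 were. In TE 5 of 6 were lower in all 3 pairs. The fitted median was −1.14 in RPF, −0.12 in total RNA and −1.02 in TE, with 0 of 6 called, and the difference between these 6 and the 7 members was not tested.

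**Figure D4:**
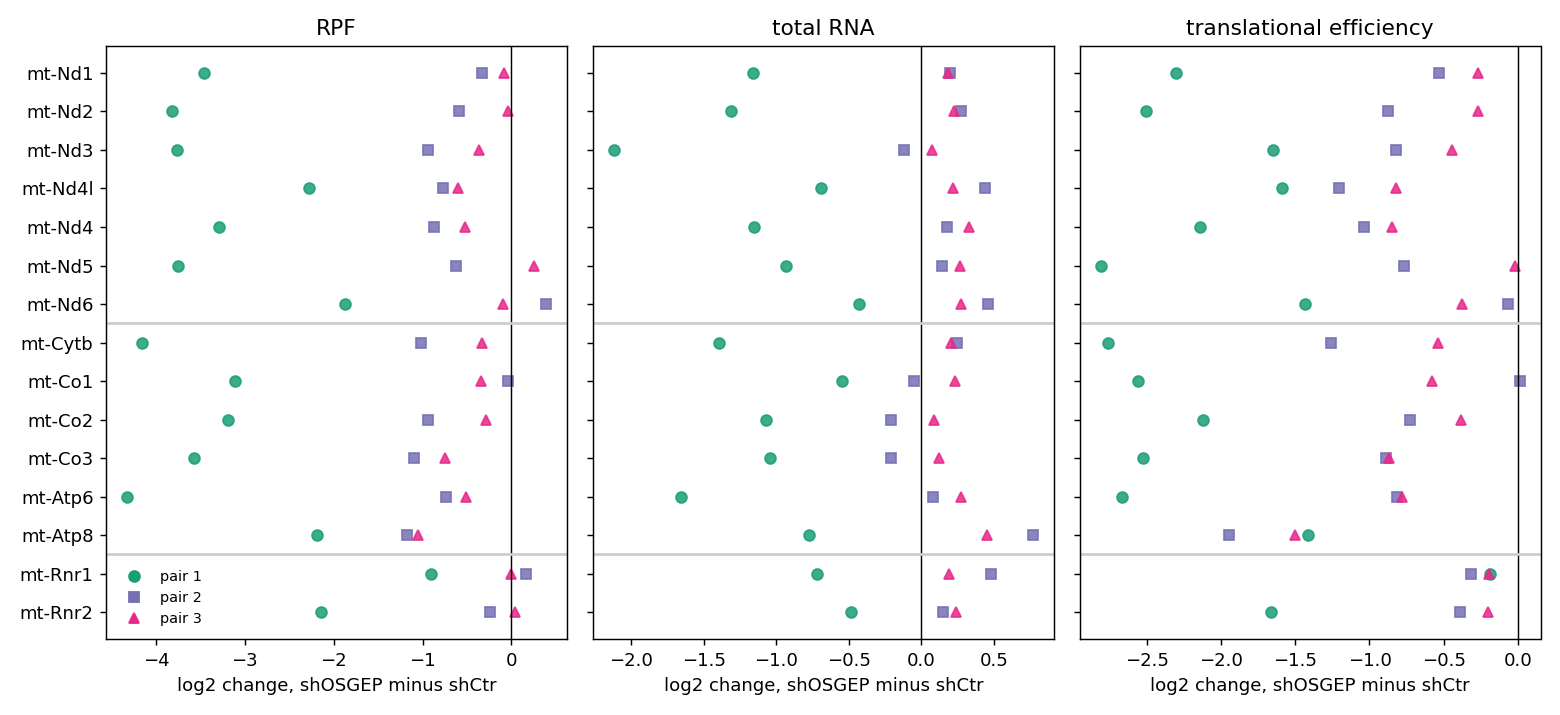
Log2 difference between shOSGEP and shCtr in each replicate pair, in RPF, total RNA and TE, for the 7 members (top), the 6 other mitochondrial protein genes (middle) and the mitochondrial rRNAs (bottom). The horizontal scales differ between panels. The points of pair 1 lie furthest left for each of the 13 protein genes in RPF and total RNA.

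The ANN share of the members was set beside their change. Across the 7 members, Pearson's r between ANN share and the RPF difference was −0.71, −0.60 and 0.21 in pairs 1, 2 and 3, and −0.38, −0.35 and 0.15 across all 13 genes. For TE it was −0.76, −0.57 and 0.14 across the 7 and −0.24, −0.44 and 0.02 across the 13. Spearman's rank correlation across the 7 was −0.75, −0.39 and 0.39 for RPF and −0.75, −0.46 and 0.14 for TE. The sign was not the same in each pair. mt-Nd6, whose reads could not be assigned to a strand, had the lowest ANN share. It also had the highest RPF and TE difference of the members in pairs 1 and 2. The genes share libraries and long transcripts, so these values are descriptions across genes and not replicates.

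Nuclear genes of complex I were then read as lists. Of 37 nuclear complex I subunits, 36 were tested in each measure and 0 were called. Their median fitted change was 0.17 in RPF, 0.02 in total RNA and 0.14 in TE, and the RPF median by pair was 0.65, −0.22 and −0.28. The median of these subunits, which cytosolic ribosomes make, was thus above 0 in pair 1, where that of the members was below it. In pairs 2 and 3 the RPF medians of both lists were below 0. With library totals the member median in pair 3 was 0.02, and the nuclear list was not read on that scale. Without replicate 1, the fitted median of the nuclear subunits was −0.21 in RPF, 0.005 in total RNA and −0.20 in TE. In RPF 1 of 36 was lower in all 3 pairs, below the 15.2% of all genes. Ndufa12, an accessory subunit, had the smallest unadjusted p in RPF, with differences of 1.49, 0.16 and 0.10 in pairs 1, 2 and 3 and a fitted change of 0.77 (SE 0.51). Ndufb2, an accessory subunit of the membrane arm, was next, with 1.47, −0.39 and 0.07. In total RNA these were Ndufa13 (fitted change 0.35, SE 0.22) and Ndufa7 (0.48, SE 0.34).

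Assembly factors and mitochondrial gene expression factors showed no shared direction. Of 19 assembly factors 18 were tested, with 0 called and medians of 0.10, 0.01 and 0.05 in RPF, total RNA and TE. Ndufaf7, a methyltransferase that acts on a complex I subunit, differed by −0.84, −0.26 and −0.31 in RPF in the 3 pairs, and by −0.78, −0.28 and 0.03 in total RNA. Ndufaf3, an early assembly factor, differed by 1.34, 0.11 and −0.38 in RPF. Tmem126b, part of the intermediate that builds the membrane arm, had a fitted change of 0.24 (SE 0.18) in total RNA, and Foxred1 and Ndufaf2 had fitted TE changes of 0.19 (SE 0.26) and 0.28 (SE 0.46).

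Of 42 factors for mitochondrial transcription, RNA processing, tRNA modification and translation, 42 were tested, with 0 called and medians of 0.02, −0.03 and 0.00 in RPF, total RNA and TE. Grsf1, an RNA-binding protein of mitochondrial RNA granules, differed by −0.82, −0.35 and −0.47 in RPF (fitted change −0.53, SE 0.30). Yrdc, which makes the precursor of t6A for both compartments, differed by −0.32, −0.48 and −0.27 in RPF (fitted change −0.36, SE 0.23). Both were lower in each pair, although neither passed the test. Osgepl1, the mitochondrial relative of Osgep, differed by −0.53, 0.05 and 0.43 in RPF and by −0.06, 0.12 and −0.01 in total RNA. Lrpprc, which stabilises mitochondrial messages, differed by −0.12, −0.16 and −0.13 in RPF and by −0.87, −0.04 and 0.08 in total RNA.

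Among the other tRNA and transcription factors of the list, Nsun3, which modifies the mitochondrial methionine tRNA, and Tefm, the mitochondrial elongation factor of transcription, were higher in total RNA in each pair. Their fitted changes were 0.43 (SE 0.24) and 0.36 (SE 0.20). Trit1 and Cdk5rap1, which add and extend a modification next to the anticodon of other tRNAs, had fitted TE changes of 0.55 (SE 0.48) and 0.46 (SE 0.44). None of these values passed the edgeR threshold.

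Finally, the genes whose RPF pattern was most like that of the members were sought. Pearson's r between log2 CPM and the mean of the 7 members over the 6 RPF libraries was highest for Fanci (0.999), Mns1 (0.998), Kif23 (0.997), Mms22l (0.997) and Hmmr (0.997), all on nuclear chromosomes. The first mitochondrial genes were mt-Co2 at rank 21 (0.993) and mt-Rnr2 at rank 53 (0.988). Fanci, a DNA repair protein, differed by −1.98, −0.35 and −0.13 in pairs 1, 2 and 3, so for it as for the members the shOSGEP replicate 1 library was far below its pair. In all, 437 of 13529 genes had an r above 0.95, so a high r was not particular to mitochondrial genes. The 7 members were not left out of this count.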

How the data were processed

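The authors deposited 2 tables of raw read counts by Ensembl gene ID, 1 for RPF and 1 for total RNA. Per the submitters' processing notes, FastQC 0.11.9, Trim Galore 0.6.6, cutadapt and STAR 3.0 were used and both GRCm38 and GRCm39 are named. The study's methods describe Salmon for RNA sequencing that is listed as a separate series, and perfectly matching reads on coding transcripts for a codon analysis. Whether either applies to these tables, which also hold rRNA genes, and the strand setting and treatment of multiply matching reads are not given in the sources used here. The labels call the molecule of the total RNA libraries poly-A RNA but repeat the footprint protocol, so their kit is uncertain.

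Gene symbols came from GENCODE M21, in which 55141 of 55487 gene IDs were found, and sequences from RefSeq (GRCm38). Counts were fitted in R 4.3.3 with edgeR 4.0.16 (filterByExpr with a minimum count of 10, TMM factors, quasi-likelihood test, Benjamini-Hochberg adjustment over all genes, threshold 0.05), separately for RPF and total RNA and as the interaction of assay and genotype for TE. The main fit had no block and compares group means, so it differs from the differences within pairs, which use log2 CPM with a prior count of 2. The scripts were tested on simulated data. CPM was computed on library sizes scaled by the TMM factors, not on raw totals.

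Replicate numbers came from the labels. After subtracting group means, libraries with the same number correlated across genes at 0.59, 0.51 and 0.66 for RPF and at 0.52, 0.54 and 0.29 for total RNA, so the numbers were taken to pair the samples. For the ratios, RPF and total RNA libraries were matched by genotype and number, and that match between assays was not checked. Alternatives were RLE factors, no filter, DESeq2 1.42.0, scaling on nuclear coding genes, the block, limma 3.58.1 voom with quality weights, leaving out libraries or replicates and, added after seeing the data, library totals without TMM factors and the nuclear copies counted with their members.

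Members and lists were chosen with earlier results of these data known. All members, mt-Rnr1, mt-Rnr2, Osgep, Osgepl1 and Lrpprc are named. From each nuclear list, genes past the threshold, or else the 2 with the smallest unadjusted p per measure, are named, together with the 5 genes most like the members in RPF. Ndufb1 and Coa1 were not tested because their symbols were not found.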

Additional observations from a re-analysis of the deposited data

How the results depend on the processing

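No setting called a member, and 0 genes were called for TE under each alternative run. Gene counts moved from 0 to 229 in RPF without a filter on low counts and to 1 (Gm29374) with DESeq2. In total RNA they moved from 0 to 8 with DESeq2, to 1 (Cdsn) with the replicate block and to 2 (Cdsn and Gm45234) with voom. Leaving out libraries or replicates gave 0 genes throughout and moved the member median between −1.13 and −0.16 in RPF, −0.42 and 0.36 in total RNA and −0.93 and −0.47 in TE. Voom gave medians of −0.47, 0.19 and −0.68, and turned the sign of mt-Nd6 in RPF (0.10), of mt-Nd1 (0.13), mt-Nd2 (0.19), mt-Nd4 (0.23) and mt-Nd5 (0.12) in total RNA, and of mt-Nd3 in TE (0.048). The replicate block turned mt-Nd4l in total RNA (−0.0072) and changed no other direction or call of a member. Library totals without TMM factors, added after seeing the data, turned mt-Nd6 in RPF (0.022) and moved the median of all genes in TE to −0.13, with a member median there of −0.48.

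With 1 library or replicate left out, signs turned for single members. The range was −2.26 to 0.23 for mt-Nd3 and −0.76 to 0.32 for mt-Nd6 in RPF. In total RNA it was −0.51 to 0.31 for mt-Nd1, −0.54 to 0.39 for mt-Nd2, −0.95 to 0.083 for mt-Nd3, −0.42 to 0.36 for mt-Nd4, −0.26 to 0.49 for mt-Nd4l, −0.40 to 0.24 for mt-Nd5 and −0.10 to 0.41 for mt-Nd6. For mt-Nd3 in TE it was −1.23 to 0.31, with the sign turning without shCtr replicate 2, as it did in RPF. The RPF of mt-Nd6 and the RNA of mt-Nd1 to mt-Nd5, mt-Nd4l excepted, turned higher without shOSGEP replicate 1, the RNA of mt-Nd1 (0.14), mt-Nd2 (0.22), mt-Nd4 (0.21) and mt-Nd5 (0.10) also without shCtr replicate 2, and the RNA of mt-Nd4l and mt-Nd6 turned lower without shOSGEP replicate 2. The causes were not tested. Depth limits mt-Nd3 and mt-Nd4l most in RPF of shOSGEP replicate 1.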

Other observations

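Mitochondrial tRNA genes in the RPF libraries moved in both directions in pair 1, unlike the members. Of 22 mitochondrial tRNA genes 19 were tested in RPF, and 14, 16 and 6 of them were lower in shOSGEP in pairs 1, 2 and 3, with 4 lower in all 3 pairs (15.2% of all genes). Their median log2 difference was −0.92, −0.82 and 0.16. The extremes in pair 1, named after their values were seen, were the tRNA for proline (mt-Tp), with 1153 reads in shCtr and 155 in shOSGEP and a difference of −2.34, and the first leucine tRNA (mt-Tl1), with 1285 and 2796 reads and a difference of 1.67. In pairs 2 and 3 these differed by 0.10 and 0.26 for mt-Tp and by −0.34 and 0.15 for mt-Tl1.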
